A study of Caenorhabditis elegans with 2 samples.

Results

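Of the 3955 autosomal peaks of the forkhead factor FKH-8 that passed a reproducibility threshold, 587 had their summit in the promoter windows of at least 2 protein-coding genes. A promoter window here reached 1000 bp upstream and 200 bp downstream of a gene's annotated 5′ end, and the summit is the base that the peak caller marked as the centre of the peak. The 587 peaks are called shared peaks below. They came from a list of 4963 reproducible peaks over all chromosomes, and 28 peaks on the X chromosome that also had their summit in more than 1 window were left aside. Among the peaks of that list, membership rested on position and gene models alone, not on peak height. The list itself has a lower end, and its lowest autosomal peak had a deposited signal of 94.9. Shared peaks were 14.8% of the autosomal peaks (95% Clopper-Pearson interval 13.7 to 16%). In 513 of them the windows belonged to a divergent pair, that is, 2 neighbouring genes transcribed away from each other. In 31 the windows belonged to genes on the same strand. In 41 the summit lay in windows of 3 or more genes on both strands, 40 of these having 3 genes and 1 having 4. In the remaining 2 the genes were on opposite strands with overlapping starts. A further 1259 autosomal peaks had their summit in the window of 1 gene only, and 2109 lay in no window.

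The data are chromatin immunoprecipitation with sequencing (ChIP-seq) of whole Caenorhabditis elegans, a nematode. The single group of 2 biological replicates was strain OP652, with genotype unc-119(tm4063) III; wgIs652, a line that stably carries a transgene of FKH-8 fused at its C terminus to GFP and FLAG. The animals were mixed-sex larvae of the first stage, starved after bleaching to synchronize them and collected 6 hours later. All animals carried the unc-119 allele and the tagged copy, and chromatin came from whole animals, so a peak cannot be assigned to a cell type. The description in the labels names an antibody against GFP, while their antibody field names fkh-8. With 1 group there was no difference between conditions to test, and peaks, which share the same 2 libraries, are no replicates of each other. All values below are therefore descriptions. Some are given with their value in each replicate, and a signal given alone is that of the pooled list. Read counts were not in the files used, so sequencing depth is unknown, and the intervals cover the counting of peaks, pairs or genes only.

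Forkhead factors bind DNA through a winged-helix domain, and members of the family recognise sequences around GTAAACA. In C. elegans, fkh-8 is known for its role in sensory neurons that carry cilia, where the RFX factor DAF-19 acts through a sequence called the X-box. Worm genes are packed closely. Many start back to back with a neighbour, so that a single stretch of chromatin lies upstream of both, and others sit in operons, in which genes on the same strand are transcribed as 1 precursor from a promoter before the first gene. Annotated 5′ ends in this animal are often sites of trans-splicing, which lie downstream of where transcription starts. A divergent summit can thus belong to either gene or to both, and the peak lists alone do not tell which.

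The DNA around the summits of 4 of the 5 highest divergent members is shown first. The other of the 5, nhl-2/tag-340, is not shown, although its signal of 1492.0 was above the 1342.1 at rpl-12/lin-54. Each stretch is the plus strand of ce11, read from the RefSeq genome, within 100 bp of the summit and trimmed where an exon of a coding gene began. Capitals mark 7 motifs searched on both strands, namely GACGC, the forkhead sequence GTAAACA, the X-box, the repeat GAGAGA, the GC-rich GGGCGG, the E-box CACGTG and the GATA-type TGATAA, together with the word CGCTCCA, which was added after its counts had been seen.
K01G5.10/tasp-1, chrIII:10759161-10759306: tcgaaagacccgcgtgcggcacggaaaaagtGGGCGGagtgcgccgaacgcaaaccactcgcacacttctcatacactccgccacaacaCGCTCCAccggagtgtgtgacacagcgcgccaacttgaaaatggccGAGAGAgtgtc
rpl-15/K11H12.8, chrIV:654829-655029: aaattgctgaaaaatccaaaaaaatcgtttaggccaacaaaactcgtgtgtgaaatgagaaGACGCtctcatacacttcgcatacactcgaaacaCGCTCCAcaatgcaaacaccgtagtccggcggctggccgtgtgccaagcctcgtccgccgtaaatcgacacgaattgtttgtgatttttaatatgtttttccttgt
rpl-20/Y17G9B.5, chrIV:4749971-4750171: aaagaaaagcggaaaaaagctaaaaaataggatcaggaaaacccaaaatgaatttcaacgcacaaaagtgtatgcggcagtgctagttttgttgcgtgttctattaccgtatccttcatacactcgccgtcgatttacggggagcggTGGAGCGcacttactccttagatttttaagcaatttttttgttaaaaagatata
rpl-12/lin-54, chrIV:13240652-13240778: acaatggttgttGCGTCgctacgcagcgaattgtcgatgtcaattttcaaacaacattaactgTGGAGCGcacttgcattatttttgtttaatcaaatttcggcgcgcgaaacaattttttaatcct
All 4 stretches held CGCTCCA on one strand or the other, and none held GTAAACA or an X-box. The word was not found at nhl-2/tag-340, the other of the 5 highest, and it was within 100 bp of the summit at 5 of the 12 highest and 21 of the 100 highest divergent members. GACGC was present at rpl-15/K11H12.8 and rpl-12/lin-54. These matches describe letters and are not shown to be binding sites.

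The highest autosomal peak of the whole reproducible list was a shared peak. It lay between K01G5.10 and tasp-1, the latter a homologue of the human protease taspase, with a deposited signal of 2101.8 in the pooled list, 976.3 in replicate 1 and 1125.9 in replicate 2. Its summit was 46 bp upstream of tasp-1 and 739 bp upstream of K01G5.10. Of the next 4 members, 3 paired a gene of the large ribosomal subunit with a neighbour of another kind. At rpl-15/K11H12.8 the signal was 1662.3, with 858.3 and 798.0 in replicates 1 and 2. At rpl-20/Y17G9B.5 it was 1578.6, with 774.9 and 807.3. At nhl-2/tag-340, where nhl-2 encodes a protein that works with microRNAs, it was 1492.0, with 679.3 and 799.6. At rpl-12/lin-54, where lin-54 encodes the DNA-binding subunit of the DREAM repressor complex, it was 1342.1, with 626.1 and 712.4. These 5 peaks ranked 1, 5, 6, 8 and 11 in the whole list.

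Translation and protein folding recurred among the other 7 of the 12 highest divergent members. The pair iff-2/F54C9.14, where iff-2 encodes the translation factor eIF5A, reached 1142.0, with 584.2 in replicate 1 and 559.2 in replicate 2. Small-subunit ribosomal genes stood at rps-19/hsr-9, at rps-20/ekl-4 and at ifet-1/rps-1, with signals of 1129.7, 1068.1 and 948.7. The partner ifet-1 encodes a repressor of translation that binds the cap-binding protein. At R107.5/cls-2 the signal was 963.0, cls-2 encoding a microtubule-stabilising protein of the CLASP family. The mitochondrial chaperonin gene hsp-60 shared its peak, of signal 954.9, with Y22D7AL.10, which RefSeq names as the mitochondrial 10 kDa heat shock protein, so the chaperonin and its co-chaperonin stood at a single summit. At cct-8/Y55F3AR.2, where cct-8 encodes a subunit of the cytosolic chaperonin, the signal was 936.0, with 467.6 and 468.3 in replicates 1 and 2.

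**Figure D1:**
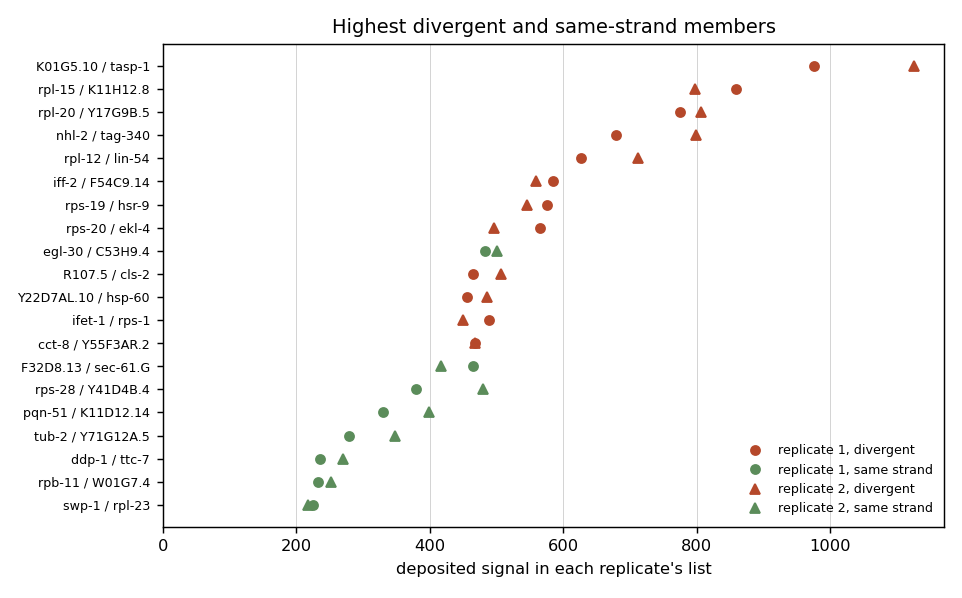
Deposited signal of the 12 highest divergent members (red) and the 8 highest same-strand members (green), with replicate 1 as circles and replicate 2 as triangles. The highest member, K01G5.10/tasp-1, has 976.3 and 1125.9, and rps-28/Y41D4B.4 has 380.2 and 479.5.

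Shared peaks had higher medians of signal than other autosomal peaks, in both replicates for divergent members. Divergent members had a median pooled signal of 211.9 (quartiles 134.7 and 368.9), same-strand members 209.4 and members with 3 or more genes on both strands 226.0. Peaks in 1 window had a median of 169.6 and peaks in no window 155.6. The median over divergent members was 1.25 times that over peaks in 1 window, and the same ratio was 1.26 in replicate 1 and 1.21 in replicate 2. For same-strand peaks the ratio was 1.24 pooled, 1.21 among the best peaks of replicate 1 and 1.03 among those of replicate 2. The 1.03 was over 35 same-strand peaks of replicate 2, not over the 31 members. At the members' own summits the same-strand median was 103.6 in replicate 1 and 100.5 in replicate 2. Peaks in 1 window had 85.1 and 89.3 there. The distributions overlapped widely, and the lowest shared peaks, at rab-8/D1037.1 and gmpr-1/fipp-1, had signals of 95.2 and 95.3 at the lower end of the list.

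**Figure D2:**
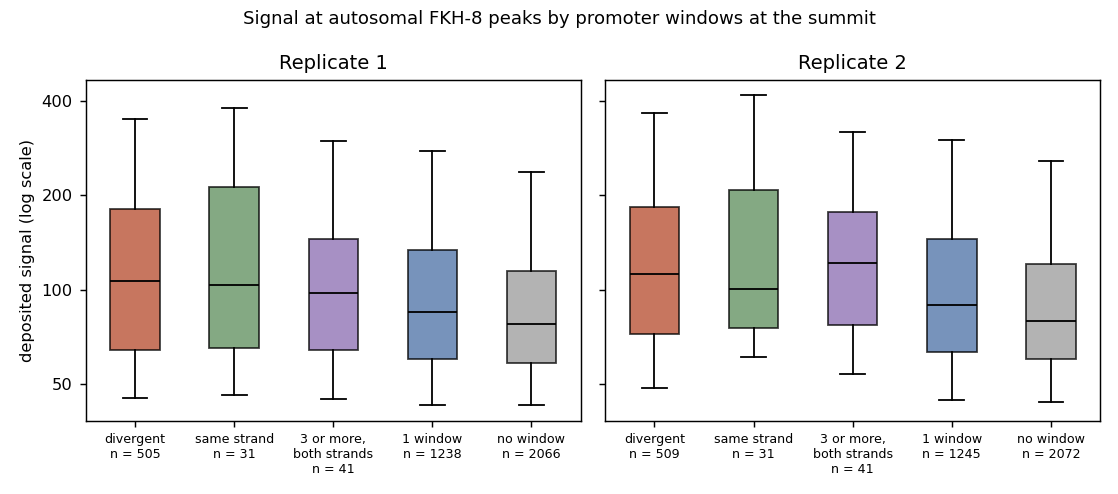
Deposited signal of autosomal reproducible peaks in each replicate's own list (log axis) by the promoter windows at the summit: boxes show quartiles and median, whiskers the 5th and 95th percentiles, n the peaks with a summit of that replicate within 100 bp. Divergent boxes sit above those of peaks in 1 window and in no window in both replicates, and all boxes overlap.

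The share of shared peaks was highest at the top of the list. Divided by signal into 5 bins of 791 peaks each, the autosomal list held 25% shared peaks in its highest bin (22 to 28.2%). The next bin held 16.2%, and the lower 3 held 11.4%, 11.3% and 10.4%. Among the 100 highest autosomal peaks, 36 were shared, 30 of them divergent and 4 same-strand. Peaks in no window went the other way, from 40.8% of the highest bin to 58.3% of the lowest. The replicates ranked shared peaks alike over the 576 with a summit in both replicate lists (Spearman's rho 0.92, a description over peaks that share their libraries), and 506 of the 587 (86.2%) were among the 4963 best peaks of both replicates. The same share was 80.1% for peaks in 1 window and 77.6% for those in none. Being among the best peaks depends on signal, whose median was higher for shared peaks, and the shares were not compared at equal signal.

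Shared windows make up little of the autosomes. They covered 2.68% of autosomal bases and held 14.8% of the summits, or 266 summits per Mb, with 257 and 273 per Mb among the best peaks of replicates 1 and 2. Divergent windows held 274 per Mb and same-strand windows 133 per Mb. Windows of a single gene held 77.8 per Mb, and the rest of the autosomes 32.9 per Mb. Divergent windows lie nearer to 5′ ends, so density was also compared at equal distance to the nearest coding 5′ end, outside coding genes. Within 100 bp it was 486 summits per Mb in divergent windows and 155 per Mb in windows of 1 gene. From 101 to 200 bp it was 656 and 238 per Mb. From 201 to 300 bp it was 450 and 190 per Mb, and from 301 to 400 bp 246 and 114 per Mb. From 401 to 500 bp the values, 86.5 and 72.4 per Mb, rested on 9 divergent summits. In each of these 5 bins, and in the 2 sparser ones beyond, the divergent value was the higher, by 1.20 to 3.14 times. Divergent stretches lie in the windows of 2 genes and the others in that of 1, and density per gene was not compared.

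**Figure D3:**
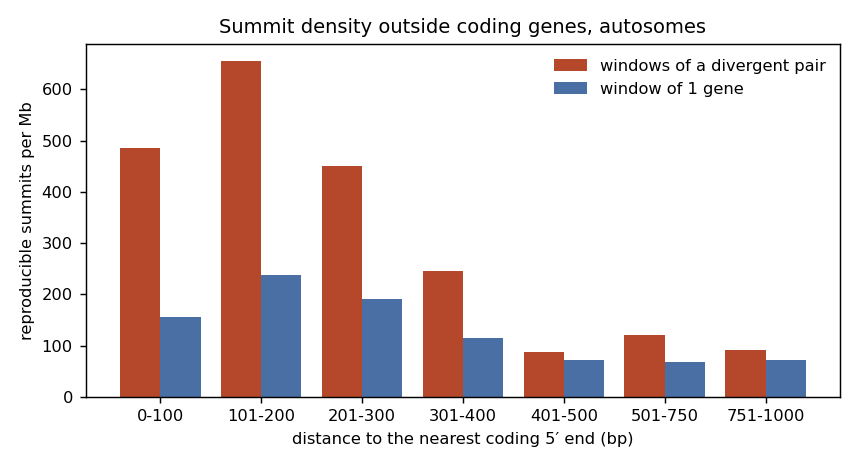
Reproducible autosomal summits per Mb outside coding genes, by distance in bp to the nearest coding 5′ end, in windows of divergent pairs (red) and in windows of 1 gene (blue). Both peak at 101 to 200 bp, at 656 and 238 per Mb, and the last 3 distance bins hold 28 divergent summits in all.

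Seen from the annotation, 2833 divergent pairs on the autosomes had overlapping windows, and 576 of them (20.3%, 18.9 to 21.9%) held a reproducible summit in the overlap. The share was 19.7% with the best peaks of replicate 1 and 20.6% with those of replicate 2. Of 845 same-strand pairs, 72 (8.52%, 6.73 to 10.6%) held one, with 8.17% and 9.11% in replicates 1 and 2. Pairs within groups of 3 or more genes are counted here too, so these numbers exceed those of the members. Of 11010 genes whose window overlapped no other, 993 (9.02%) held a summit. These shares are over stretches of unequal length, since the overlap averaged 727 bases for divergent and 398 bases for same-strand pairs. A pair also holds 2 genes while the 9.02% is per single gene, so the shares do not compare binding per gene. Same-strand pairs with 5′ ends 1 to 250 bp apart, whose overlap averaged 1139 bases, held a summit in 18 of 81 cases (22.2%, 13.7 to 32.8%), those 251 to 500 bp apart in 9 of 46 (19.6%) and those 501 to 1000 bp apart in 43 of 430 (10%). Of the 2257 divergent pairs without a reproducible summit, 356 (15.8%) had a summit in the longer pooled list, which includes background regions.

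Divergent pairs with 5′ ends 251 to 500 bp apart held a summit most often, in 187 of 528 (35.4%, 31.3 to 39.7%). In replicates 1 and 2 that share was 32.8% and 35.4%. For pairs up to 250 bp apart it was 23.6%, and for those 501 to 1000 bp apart 27.2%. It was 11.3% from 1001 to 1500 bp and 2.47% beyond 1500 bp, where the overlap of the windows shrinks to a mean of 241 bases, so the fall at wide spacing is partly set by the windows. Counted per Mb of overlap, summits still numbered 428, 473, 269, 152 and 102 in the 5 classes from narrow to wide. Signal varied less with spacing: the median was 170.7 for members up to 250 bp apart, 253.1 from 251 to 500 bp, 209.6 from 501 to 1000 bp, 206.0 from 1001 to 1500 bp and 261.9 over the 8 members beyond 1500 bp.

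Within divergent pairs the summits lay mostly between the genes. The 5′ ends of the 513 pairs were a median of 520 bp apart (quartiles 321 and 779). In 476 (92.8%) the summit lay between the 5′ ends, but the windows allow at most 200 bp outside, so this share is largely set by the rule. In 293 it lay in the middle part, from 25 to 75% of the way across. The nearer 5′ end was a median of 148 bp away and the farther 366 bp, and in 210 members (40.9%) both were within 300 bp. The minus-strand gene was nearer in 238 and the plus-strand gene in 275. By annotation 470 summits were intergenic, 31 lay in non-coding parts of exons, 6 in coding sequence and 6 in introns. At pas-4/rpb-3, which encode a proteasome core subunit and an RNA polymerase subunit, the summit was 139 and 138 bp from the 5′ ends. At pbs-2/eif-6, a proteasome subunit and a translation factor, it was 334 and 332 bp from them.

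**Figure D4:**
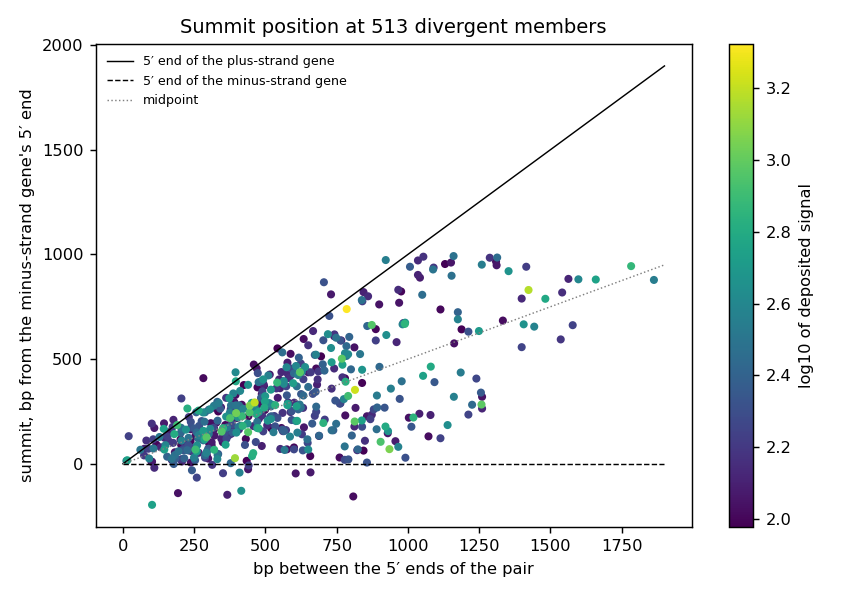
Summit position at the 513 divergent members: distance in bp from the minus-strand gene's 5′ end against the distance between the 5′ ends, coloured by log10 of the pooled signal. Points between the dashed and the solid line (476 of 513) lie between the 5′ ends, and no class of spacing holds all the high signals.

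The 31 same-strand members fell into 2 kinds of gene arrangement. In 19 the gene models were separate, and in 12 they overlapped. The summit was upstream of both genes in 30 of 31, and the gene with the upstream 5′ end was the nearer in 30, an order that follows from the shared strand wherever the summit is upstream of both. In the remaining 1, unc-60/F53E2.2, both genes start at the same base. In 21 the first gene was shorter than 1000 bp. Separate genes can share a window only if the first is short. The highest was at egl-30/C53H9.4, with 985.1 pooled, 482.6 in replicate 1 and 501.6 in replicate 2. There egl-30, which encodes the Gq alpha subunit that acts in neurotransmitter release, overlaps C53H9.4, and the summit was 54 and 173 bp upstream of the 5′ ends. At F32D8.13/sec-61.G the signal was 885.3, with 464.8 and 417.5, and the summit was 229 bp upstream of sec-61.G, the gamma subunit of the translocon through which proteins enter the endoplasmic reticulum. At rps-28/Y41D4B.4 it was 841.8, with 380.2 and 479.5, and the summit was 421 bp upstream of rps-28 and 840 bp upstream of Y41D4B.4. At rpb-11/W01G7.4 it was 489.5, 112 bp upstream of rpb-11, an RNA polymerase II subunit. The gap from the first gene's end to the second gene's start was 112 bp at rps-28/Y41D4B.4, 114 bp at F32D8.13/sec-61.G and 114 bp at rpb-11/W01G7.4. The stretch around the summit at rps-28/Y41D4B.4 is shown as that of the highest same-strand member with a ribosomal gene, with GGGCGG on the minus strand in capitals.
rps-28/Y41D4B.4, chrIV:1659170-1659370: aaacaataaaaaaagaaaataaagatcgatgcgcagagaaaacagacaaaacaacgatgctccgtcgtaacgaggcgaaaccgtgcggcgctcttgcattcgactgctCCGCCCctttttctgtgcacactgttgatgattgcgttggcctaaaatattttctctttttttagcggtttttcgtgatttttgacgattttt

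Shared summits reached many of the genes with an FKH-8 peak. Of 17242 autosomal coding genes, 2379 (13.8%) had a reproducible summit in their window, and 1178 (6.83%) had one in a window shared with another gene. For 1170 genes, 49.2% of those with a summit, the shared summit was the only one. For these genes the peak could belong to the neighbour alone. Only 6232 genes had a window overlapping another gene's in the annotation, and 1178 of them (18.9%) were reached, which is the share to read the gene lists below against. In 223 members (38.0%) at least 1 gene was on one of 21 lists of genes, in 40 members 2 genes were, and in 13 of these both were on the same list. The same counts over all pairs with overlapping windows were not made, so these are not shown to be particular to shared peaks.

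Cytosolic ribosomal protein genes were reached most often. Of 81 on the autosomes, 69 had a summit and 48 had a shared one, which was the only one for all 48. Among the 62 with an overlapping window the share was 77.4% (65.0 to 87.1%), beside 18.9% over all such genes. The 45 members concerned had a median signal of 390.1. The ribosomal gene was the nearer gene in 17 cases and the farther in 31, with a median distance of 308 bp to the ribosomal gene and 192.5 bp to the partner. Partners were of many kinds: lin-54 at rpl-12, the transition-zone gene tmem-107 at rps-26 (670.3), the mitochondrial ribosomal gene mrpl-49 at rpl-28 (508.9) and the collagen gene col-38 at rpl-5 (470.2). In 3 members 2 of the genes were ribosomal: rps-14/rpl-36/ndab-2 with 390.1, rpl-39/rps-30/C26F1.3 with 338.6 and rps-10/rpl-24.1 with 301.7. At rps-10/rpl-24.1 the signal was 166.4 in replicate 1 and 134.4 in replicate 2, lower than the median for the list in pooled signal.

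Other genes of translation and protein turnover were also reached above the share over all genes with an overlapping window. Of 40 autosomal translation factor genes 16 were reached, 57.1% of the 28 with an overlapping window (37.2 to 75.5%). Among them were the elongation factor genes eef-1A.1 with rfc-4 (746.0), eef-1G with ctf-4 (627.7) and eef-2 with clsp-1 (607.4). At clsp-1/eef-2 the summit was 11 bp from the 5′ end of eef-2 and 254 bp from that of clsp-1, and at eef-1A.1/rfc-4 it was 388 and 153 bp away, so the elongation factor was the nearer gene at the former and not at the latter. Of 53 proteasome and ubiquitin-conjugating genes 19 were reached, 54.3% of the 35 with an overlapping window (36.6 to 71.2%). Of 63 chaperone genes 21 were reached, 58.3% of 36 (40.8 to 74.5%). The chaperone was the nearer gene in 6 of those 21. At hsp-110/rpn-3, a chaperone beside a subunit of the proteasome cap, the signal was 858.4, with 432.6 in replicate 1 and 433.5 in replicate 2. Further chaperonin and co-chaperone genes stood at T10B5.4/cct-7 with 928.3 and at F54D5.9/dnj-13 with 915.9. The small heat shock genes hsp-16.2 and hsp-16.41 share a promoter of 221 bp, where the signal was 452.3, with 271.9 in replicate 1 and 186.9 in replicate 2. These 2 genes have close relatives elsewhere in the genome, and how the authors placed reads with several matches is not given in the sources used here, so this value is uncertain.

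Genes of splicing, transport and energy metabolism were reached as well. Splicing genes were reached in 22 of 58 cases, 53.7% of the 41 with an overlapping window (37.4 to 69.3%), as at prp-19/K10D2.5/emb-1 (615.7), snx-13/snr-1 (581.5) and bath-42/prp-8 (481.6), prp-8 being the core protein of the spliceosome's catalytic centre. The pair rsp-2/rsp-1, both encoding SR splicing factors, had 288.7, with 163.9 and 127.1 in replicates 1 and 2. Rab and secretory genes were reached in 15 of 52 cases, 48.4% of 31 with an overlapping window, with sec-61.G as described above (885.3) and rab-7/W03C9.5/mex-1 next, with 836.2. Nuclear pore and transport genes were reached in 11 of 40, 40.7% of 27 with such a window, as at npp-3/top-2 with 553.8. For the respiratory chain it was 16 of 63, 34.8% of 46, led by mcrs-1/atp-1 (793.8), where the summit was 5 bp from the 5′ end of the ATP synthase gene atp-1. For mitochondrial ribosomal proteins it was 15 of 70, or 36.6% of the 41 with an overlapping window, and for Mediator, TAF and RNA polymerase subunits 15 of 60, or 42.9% of 35. For vacuolar genes it was 9 of 45, or 34.6% of 26 (17.2 to 55.7%), and for aminoacyl-tRNA synthetases 5 of 31, or 29.4% of 17 (10.3 to 56%), intervals that include the 18.9% over all genes with an overlapping window.

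The 5 members with genes of the DREAM complex and the Rb pathway had a median signal of 617.2. They were rpl-12/lin-54, vps-51/lin-35 (762.0), lin-53/nra-2 (617.2), efl-1/fbxa-90 (436.4) and lin-61/bub-1 (162.0), the last outside the rule for naming. Among them lin-35 is the worm's Rb protein and efl-1 an E2F factor. The listed gene was the nearer one in 2 cases and the farther in 3. At rpl-12/lin-54, the highest, the summit was 27 bp from the 5′ end of rpl-12 and 366 bp from that of lin-54. At vps-51/lin-35 the signal was 348.2 in replicate 1 and 409.7 in replicate 2, with the summit 227 and 191 bp from the 5′ ends, and lin-35 was the nearer gene. The list holds 12 autosomal genes, 8 of them with an overlapping window, which limits what its counts can show. Of these 8 genes 5 were reached (62.5%, 24.5 to 91.5%).

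Cilium genes, which relate most directly to the neurons fkh-8 is known for, were reached through shared summits in 11 of 58 cases, while 30 of the 58 had a summit of any kind. Only 23 of the 58 had an overlapping window, so the share reached among these was 47.8% (26.8 to 69.4%). Unlike the ribosomal genes, the cilium gene was the nearer one in 8 of 11, with a median of 89 bp to the cilium gene and 374 bp to its partner. The highest was tmem-107/rps-26, with 670.3 pooled, 348.8 in replicate 1 and 327.4 in replicate 2, 51 bp from tmem-107 and 406 bp from rps-26. At ift-43/mdt-26, an intraflagellar transport gene beside a Mediator subunit gene, it was 414.1, but the summit lay nearer to mdt-26. At dlc-1/nduf-2.2, with a dynein light chain gene, it was 381.4. The other 8 were lower: 262.4 at dyf-2/cul-2, 229.4 at tub-1/tmem-138, 226.2 at dnc-1/lsm-7 and 219.3 at hpo-9/hyls-1. Below these came 175.8 at daf-10/rpb-12/aly-2, 173.0 at dyf-3/pdhb-1, 155.8 at F20C5.11/klp-11 and 118.3 at Y102E9.5/odr-4. The peak at Y102E9.5/odr-4 had 61.3 in replicate 1 and no summit within 100 bp in replicate 2. The genes dyf-2, daf-10 and dyf-3 encode intraflagellar transport proteins, and klp-11 a kinesin-II motor subunit.
The stretches at tub-1/tmem-138 and dyf-2/cul-2 are shown because they hold X-boxes, whose 14 bases are in capitals. At tub-1/tmem-138 GAGAGA is also in capitals, and the second X-box overlaps GACGC, so that their capitals run together.
tub-1/tmem-138, ce11 chrII:8157086-8157286: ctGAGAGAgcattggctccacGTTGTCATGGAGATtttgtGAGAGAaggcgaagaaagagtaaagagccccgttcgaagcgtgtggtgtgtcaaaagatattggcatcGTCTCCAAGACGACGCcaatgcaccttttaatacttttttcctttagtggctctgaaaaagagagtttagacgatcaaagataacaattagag
dyf-2/cul-2, ce11 chrIII:13686446-13686614: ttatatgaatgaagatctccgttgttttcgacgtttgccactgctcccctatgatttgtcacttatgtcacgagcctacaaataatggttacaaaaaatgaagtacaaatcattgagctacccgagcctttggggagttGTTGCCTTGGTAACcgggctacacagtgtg
The summit at tub-1/tmem-138 was 15 bp from the nearer X-box and 72 bp from the other, and tub-1 and tmem-138 were each the nearest gene to 1 of them. At dyf-2/cul-2 the X-box was 147 bp from the 5′ end of dyf-2 and 677 bp from that of cul-2. An X-box was found at 11 of the 587 shared summits, among them 3 of the 11 with a cilium gene and 8 of the 576 others (1.39%). The remaining cilium pair with one was dyf-3/pdhb-1, where it lay 26 bp from the 5′ end of dyf-3. Of the members with an X-box the highest was Y39A1A.2/rabx-5, with 741.9, where neither gene is on the cilium list.

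Among large gene families, chemoreceptor genes were reached in 12 of 1276 cases, 3.87% of the 310 with an overlapping window (2.02 to 6.66%), and nuclear receptor genes in 2 of 246, 4.35% of 46 (0.531 to 14.8%). Both intervals lie below the 18.9% over all genes with such a window. Collagen genes were reached in 4 of 143 cases, 8.89% of 45 (2.48 to 21.2%), and histone genes in 8 of 76, 11.8% of 68 (5.22 to 21.9%), intervals that include 18.9%. None of the 4 collagen genes was the nearer gene, and at col-38/rpl-5 and col-71/Y49F6B.2 the signals were 470.2 and 355.1. Many histone and chemoreceptor genes have close or near-identical copies, so their values are uncertain for the reason given above. At wapl-1/htz-1, where htz-1 encodes the histone variant H2A.Z, the signal was 651.6. Pan-neuronal genes were reached in 2 of 28 cases, egl-30 and ric-19 (203.8, beside pmlr-1), and sensory signalling genes in 1 of 29, gcy-33 (227.8, beside cpr-9). Few genes of these 2 lists could be reached, since 4 and 6 of them had an overlapping window. Of the 12 autosomal genes of the forkhead and DAF-19 list, 3 had an overlapping window, 0 were reached, and 2 had a summit of any kind.

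**Figure D5:**
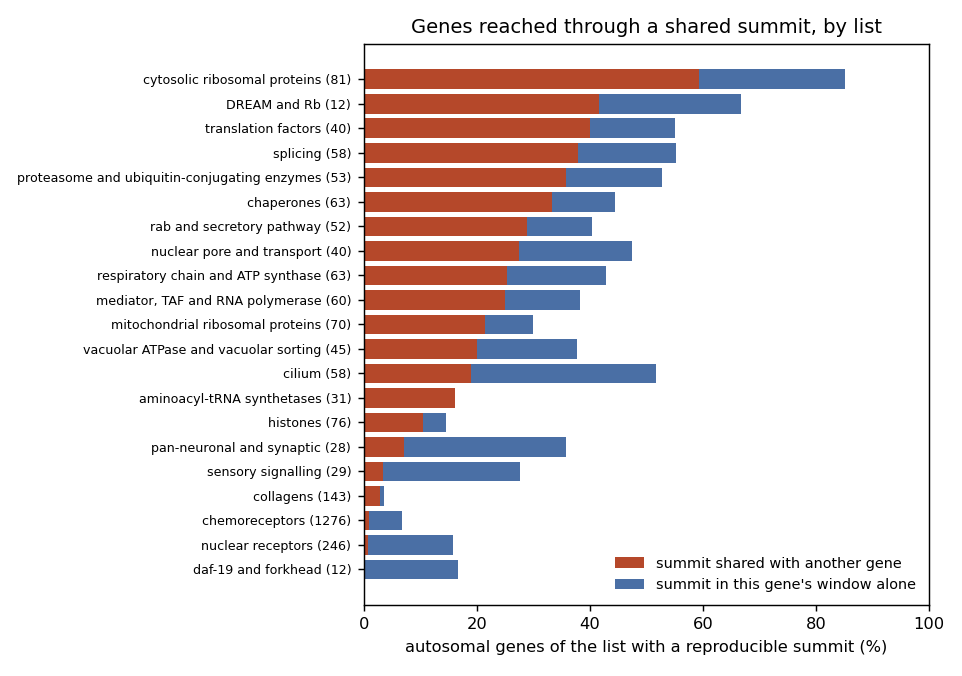
Share of the autosomal genes of each list (number of genes in brackets) with a reproducible summit, divided into genes with a summit shared with another gene (red) and genes with a summit in their own window alone (blue). Cytosolic ribosomal proteins lead with 48 of 81 through a shared summit; cilium genes have 11 of 58 through a shared summit and 30 of 58 in all.

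The DNA within 100 bp of the summits was compared by motif, a match on either strand counting once. GACGC was at 35.1% of divergent summits (31.0 to 39.4%), 33.1% of summits in 1 window and 28.7% of those in none. It was at 12.8% of the midpoints of the 2257 divergent pairs without a summit. The forkhead sequence GTAAACA was at 3.12% of divergent summits, 4.21% and 3.65% of the other summits and 3.63% of the midpoints, so its shares were near each other. The X-box was at 1.75% of divergent summits (0.805 to 3.30%) and 4.61% of summits in 1 window (3.52 to 5.91%), 3.32% of those in none and 1.99% of the midpoints. GAGAGA was at 25.5% of divergent summits, 34.7% of those in 1 window, 39.3% of those in none and 11.1% of the midpoints. GGGCGG was at 10.3%, 10.6% and 7.92% of the summits in the same order and 4.25% of the midpoints. CACGTG was at 4.29%, 5.24%, 8.06% and 4.08%, and TGATAA at 9.16%, 12.9%, 16.4% and 19.9%. Median GC content was 39.8% at divergent summits, 40.3% in 1 window, 41.3% in none and 33.8% at the midpoints, and the part of GC in these shares was not tested. These midpoints also differ from summits in where the stretch is centred. At midpoints of the 576 divergent pairs with a summit, GACGC was at 24.5%, GAGAGA at 17.2% and TGATAA at 16.1%, with a median GC of 35.3%. Each of these values lay between those at divergent summits and at midpoints without a summit. The shares of GTAAACA (2.95%), the X-box (1.39%) and CACGTG (3.47%) did not. With the divergent members in 3 groups of 171 by signal, from highest to lowest, GACGC was at 41.5%, 35.7% and 28.1% of summits, and median GC was 42.8%, 39.8% and 37.3%.

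Shared peaks were found on every autosome. Chromosome III had 145 (18.4% of its peaks), chromosome I 135 (17.3%), chromosome IV 103 (13.7%), chromosome II 99 (12.8%) and chromosome V 105 (12.2%). Their median signal lay between 204.1 and 231.6 on all 5. The 587 peaks belonged to 571 distinct sets of genes, of which 16 held 2 summits each. At F29B9.11/jmjd-1.2 both summits were high, at 812.9 and 410.4, and at fib-1/mut-15, where fib-1 encodes the nucleolar protein fibrillarin, the second was lower, at 708.8 and 104.3. In 12 of the 16 sets the summits were 199 to 209 bp apart. The member with 4 genes, Y62E10A.20/Y62E10A.23/mdt-9/lsm-3, had a signal of 268.1. At the edge of the rule, the farthest summit still counted was 996 bp upstream of the farther gene, at ril-1/hda-1 (131.7), and the nearest one outside was at 1012 bp, at sru-2/gadr-2 (121.4). Below the reproducibility threshold, the pooled list held 462 further autosomal summits in shared windows, the highest at B0495.9/sre-1 with 94.9.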

How the data were processed

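The submitters deposited narrowPeak lists for each replicate, for both pooled, and for peaks passing an irreproducible discovery rate (IDR) threshold, per the labels. The lists on ce11 were used and those on ce10 were not. The deposited signal value of a peak has no stated scaling, so it served only for ranks and comparisons inside 1 list. The aligner, peak caller and IDR threshold are not given in the sources used here. The labels mention a control that was not used here.

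Summits were placed in the windows of 19973 nuclear coding genes of Ensembl release 115, with sequence from the RefSeq genome of the same assembly. A replicate's value is that of its listed peak with the nearest summit within 100 bp, and its best peaks are its 4963 highest. Midpoints are halfway between the 5′ ends of a pair. Intervals are 95% Clopper-Pearson. Scripts in Python 3.11.15 (numpy 2.4.6, scipy 1.17.1, matplotlib 3.10.9) were tested on simulated peaks. The 9 alternatives changed windows, gene models, cutoff, replicate and overlap rule. No test was run, since 1 group was sampled.

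Named members were, by signal, the 12 highest divergent, the 8 highest same-strand, those with 4 or more genes, up to 12 with a cilium gene, up to 4 for each other list, up to 8 whose genes share a list or name, the 2 lowest, the 2 nearest the midpoint and up to 4 sets with several summits, and others named come from complete lists or were chosen after their values were seen. The members and lists were chosen with earlier results of these data known.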

Additional observations from a re-analysis of the deposited data

How the results depend on the processing

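Neither signal ratio, divergent or same-strand over 1-window peaks, fell below 1 under the alternatives run. The other values are counts and shares, for which only the size was compared. Contrasts of motif shares between divergent and other summits were not recomputed. Windows of 500 bp upstream and 100 bp downstream gave 386 members, 7 of them same-strand, 9.76% of autosomal peaks, and summits at 22.4% of divergent and 10.5% of same-strand pairs. Windows of 2000 and 500 bp gave 940 members, 132 same-strand, 23.8% of peaks, 10.2% of same-strand pairs and a divergent to 1-window signal ratio of 1.19. The 5′ end of any transcript gave 15.8% of peaks and 7.69% of same-strand pairs. The top 50% of the list by signal left 376 members, 327 divergent and 20 same-strand, 18.9% of peaks, 13.4% and 5.92% of the pairs and a divergent ratio of 1.16. Taking 2 times as many pooled peaks gave 10.8% of peaks, 27.4% and 11.1% of the pairs, and ratios of 1.37 (divergent) and 1.45 (same-strand). Counting overlap of the whole peak gave 16.8% of peaks, 23.4% and 14.2% of the pairs and a same-strand ratio of 1.1. With a single replicate, members ranged from 567 to 603, divergent ones from 495 to 523, same-strand ones from 30 to 35, their share of peaks from 14.4 to 15.3%, divergent pairs from 19.7 to 20.6%, same-strand pairs from 8.17 to 9.11%, the divergent ratio from 1.21 to 1.26 and the same-strand ratio from 1.03 to 1.21. RefSeq gene models moved none of these counts, pair shares or ratios beyond the spread between replicates. Of the motif shares, the X-box at divergent members ranged from 1.5 to 2.93% and GACGC from 31.5 to 38.2%. The causes of these shifts were not tested, beyond what each alternative changes by construction. No paired analysis was possible because there was 1 group and no test.

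The data limit what can be said in these ways. A summit in a shared window does not show which gene it belongs to. Depth is unknown, 2 replicates give a rough spread, and annotated 5′ ends are often trans-splice sites.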

Other observations

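All 8192 words of 7 letters, a word and its reverse complement counted as 1, were counted within 100 bp of the 513 divergent summits, the other autosomal summits and the midpoints of divergent pairs without a summit. This search was chosen after the sequences had been seen, and the words named are among those whose share at divergent summits most exceeded that at midpoints. Midpoints of divergent pairs with a summit were not counted, so the part of centring in these differences was not tested. AACGCGC was at 12.3% of divergent summits, 7.86% of summits in 1 window, 1.99% of summits in no window and 1.55% of midpoints. CGCTCCA, marked in the sequences above, was at 11.5%, 5.16%, 1.75% and 2.22% in the same order, and at 21% of the 100 highest divergent members. CGAGACC was at 12.1%, 5.40%, 1.42% and 3.41%, AGTGCGC at 10.5%, 5.72%, 2.28% and 1.33%, and AAATCGA at 20.3%, 12.1%, 5.12% and 10.3%. These 5 words were named with their values known, so their higher shares at divergent summits than at other summits follow from that choice. GAGAAAA, another of the words counted, was at 24.6%, 24.3%, 23.7% and 13.6% in the same order, with nearly equal shares among summits.

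Other words went the opposite way among summits. GAGACGC, which contains GACGC, was at 9.75% of divergent summits but at 15% of summits in 1 window and 13.3% of summits in no window, with 1.77% at midpoints. ACGCAGA was at 10.5%, 14.7%, 12.8% and 2.17% in the same order. AGAGAAA was at 19.9%, 26.3%, 25% and 9.84%. No word is shown to be bound, and overlapping words are counted more than once.

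At 41 of the 587 shared summits a non-coding gene also covered the summit. At 38 summits it was an annotated ncRNA, and a tRNA, a miRNA, a lincRNA and an antisense RNA were each at 1, 1 summit having genes of 2 kinds. The pair F44E5.4/F44E5.5, named after its values were seen, had a signal of 706.7, with 389.7 in replicate 1 and 323.2 in replicate 2, and its summit was 170 and 181 bp from the 5′ ends.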
